A study of Homo sapiens with 4 samples.

Results

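The nuclear-encoded subunits of the oxidative phosphorylation system were followed in RNA-seq of ES-2 cells, an established human ovarian clear cell carcinoma line that carries an endogenous YAP1-MAML2 (YM) fusion. The members were the rows of the deposited tables whose symbols start with NDUFA, NDUFB, NDUFC, NDUFS or NDUFV and a number, are SDHA to SDHD, or start with UQCR, COX4 to COX8 or ATP5. Symbols with a hyphen (5 read-through or antisense genes) were left out, so that 83 of the 19626 genes in the tables were members. All cells had been transduced with pLKO.1-based lentiviruses and came from the same line. The control group expressed a nontargeting shRNA (shCtl, n = 2 biological replicates), and the other group expressed shM2-3, an shRNA against a MAML2 sequence that the fusion also contains (n = 2). The labels call the libraries of each group biological replicates. The labels place RNA isolation 96 h after the first of the 8 h infections, whereas the methods of the study give a shorter transduction.

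Oxidative phosphorylation takes place in the inner mitochondrial membrane. Complexes I and II feed electrons from NADH and succinate to ubiquinone, complex III passes them to cytochrome c, and complex IV passes them to oxygen. Complexes I, III and IV pump protons, and complex V, the ATP synthase, uses the proton gradient to make ATP. Most subunits are encoded in the nucleus, and a small core of complexes I, III, IV and V is encoded in mitochondrial DNA. Transcripts of the mitochondrial genome were not analysed here.

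The estimated counts summed to between 20051083 and 23978660 per library. MAML2, the targeted gene, was counted 1436 and 1402 times in the shCtl libraries and 634 and 553 times in the shM2-3 libraries, where its RPKM (read count divided by gene length and library depth) was 36.2% of the control mean. Clear cell and Müllerian markers were close to 0 in every library, with PAX8, NAPSA and WT1 at an RPKM of 0.389 or less, and the epithelial markers EPCAM and CDH1 at 0.150 or less. KRT7, KRT8 and KRT18 were expressed but lower in shM2-3, with KRT7 at 269 and 267 in shCtl and 108 and 107 in shM2-3, and the mesenchymal marker VIM lay between 2037 and 2969. The 9 markers of leukocytes, fibroblasts and endothelium summed to an RPKM of 0.228 and 0.290 in shCtl and 2.35 and 1.93 in shM2-3. CD14 and PECAM1 made up most of the shM2-3 sums. CD14 had RPKM values of 0.0777 and 0.102 in shCtl and 0.890 and 0.866 in shM2-3. PECAM1 went from 0.0376 and 0.0308 to 1.31 and 0.923. The other markers, PTPRC, CD3E, DCN, LUM, POSTN, COL3A1 and VWF, were at 0.0913 or less in every library. The part of these cells in the results was not tested.

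A short sequence recurred in the promoters of the members. RefSeq promoters (GRCh38.p14, 250 bases before to 50 bases after the listed start) were at hand for 67 of the 83 members. The letters GCGCANGCG, the core bound by nuclear respiratory factor 1, were searched on both strands and were present in 21 of the 67 promoters (31.3%). They were present in 15.7% of the promoters of tested genes and in 8.05% of all listed promoters. The member with the lowest log2 fold change among those holding the letters is shown for each complex, 5′ to 3′ in the direction of the gene, with the match in capitals.
NDUFS7: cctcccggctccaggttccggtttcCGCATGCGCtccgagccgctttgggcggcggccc
SDHD: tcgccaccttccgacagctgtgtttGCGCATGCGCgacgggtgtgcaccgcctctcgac
UQCRFS1: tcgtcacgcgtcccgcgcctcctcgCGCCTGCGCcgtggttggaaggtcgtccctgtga
COX6A1: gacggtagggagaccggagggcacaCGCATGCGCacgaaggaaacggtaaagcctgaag
ATP5ME: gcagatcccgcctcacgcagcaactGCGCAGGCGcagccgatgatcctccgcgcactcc
The NDUFS7 window lies at chr19:1383808-1383866 on the plus strand, SDHD at chr11:112086738-112086796 (plus), UQCRFS1 at chr19:29213148-29213206 (minus), COX6A1 at chr12:120437869-120437927 (plus) and ATP5ME at chr4:674462-674520 (minus). In SDHD, 2 matches on opposite strands overlap, so that the capitals run over 10 bases.

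The other motifs searched on both strands were CCGGAAGT (ETS factors such as GABP), AAGATGGCG (YY1), CACGTG (E-box) and GGAATG (TEAD). CCGGAAGT was present in 14.9% of member promoters against 9.45% of those of tested genes, and AAGATGGCG in 11.9% against 4.23%. The E-box was present in 10.4% against 10.3%, and GGAATG in 8.96% against 10.9%. Among all listed promoters the shares were 4.44%, 1.85%, 7.43% and 14.0% in the same order. No match of one motif overlapped a match of another in a member promoter. The median log2 fold change was -0.39 among members with GCGCANGCG and also -0.39 among those without it, with 19 of 21 and 34 of 44 tested members lower. All 8 members with AAGATGGCG were lower, as were 45 of the 57 tested members without it. All 7 members with the E-box were lower too, beside 46 of 58 without it. With CCGGAAGT 8 of 10 were lower, beside 45 of 55 without it, and with GGAATG 5 of 6, beside 48 of 59. These matches describe letters in a window and not binding.

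Most of the tested member transcripts were lower in shM2-3 cells in each of the 5 complexes. Of the 83 members, 79 had an RPKM above 1 in at least 1 library and were tested, and 64 of them fell and 2 rose in edgeR's quasi-likelihood test, with p-values adjusted by Benjamini-Hochberg over 12157 genes and called at 0.05 or less. Of all genes tested, 36.4% were lower and 36.3% were higher by the same rule, so that 72.7% of genes were called in either direction. The median log2 fold change of the members was -0.40, beside -0.0037 over all genes tested. Changes were moderate in size. Of the 79 members, 2 (NDUFC1 and NDUFB8) passed a fold change of 2, both downward. Of all genes, 8.93% passed this limit downward and 9.24% upward. Both shM2-3 libraries lay below both shCtl libraries in RPKM for 70 members (47.1% of all genes) and above them for 2 (38.9% of all genes). In bulk RNA, fewer cells of a type and less RNA per cell cannot be told apart.

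**Figure D1:**
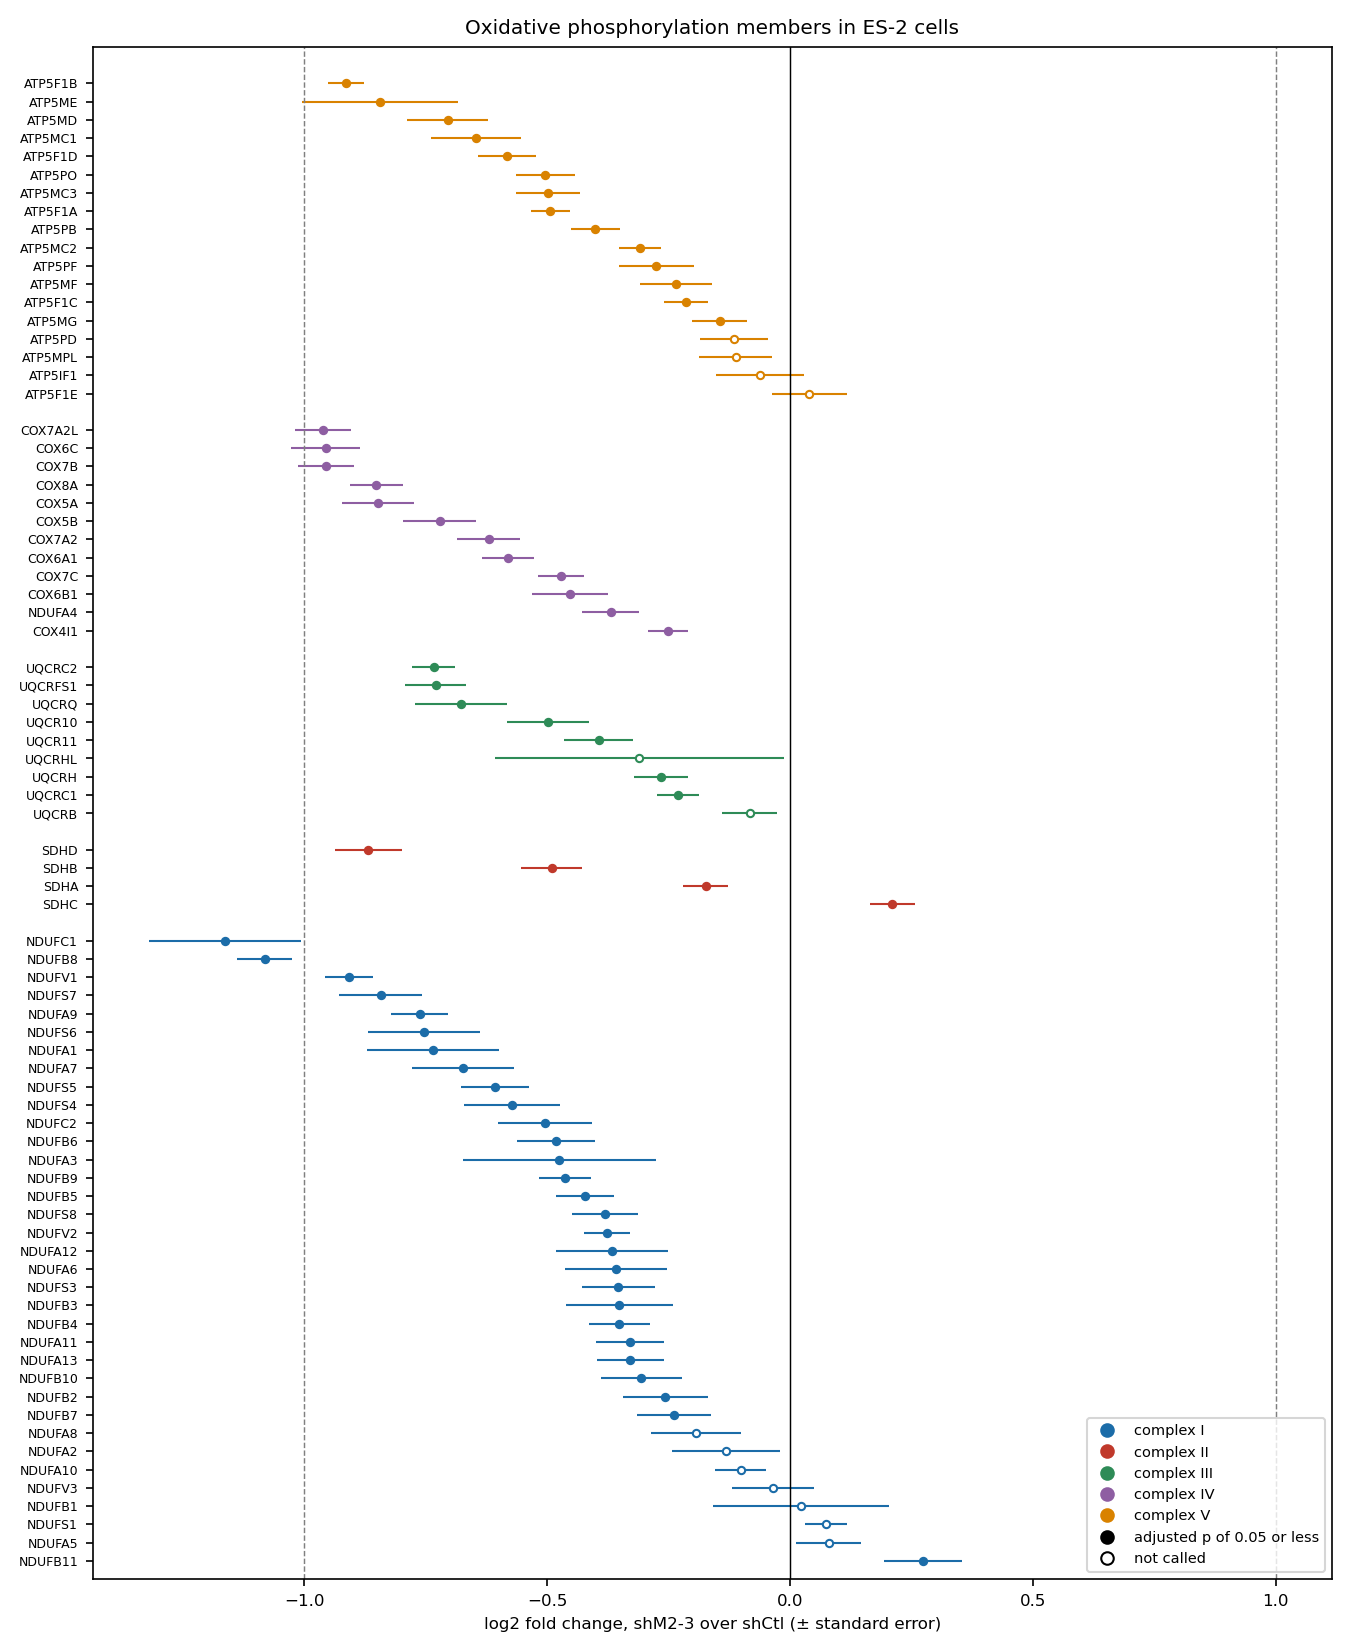
Log2 fold change of shM2-3 over shCtl (x axis) with its standard error for the tested members reported here (y axis), grouped and coloured by respiratory complex. Filled points have an adjusted p of 0.05 or less, open points do not, and dashed lines mark a fold change of 2. Most points lie left of 0, and the 12 of complex IV are all filled and below 0.

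The members together took 0.770% and 0.768% of all counts in shCtl and 0.533% and 0.558% in shM2-3. Summed over the members, RPKM came to 5243 ± 10.9 (SD, n = 2) in the shCtl libraries against 3551 ± 175 (SD, n = 2) in the shM2-3 libraries, or 67.7% of the control. The sum over all tested genes was also lower in shM2-3, at 89.7% of the control. By complex, the summed RPKM in shM2-3 was 71.0% of shCtl for complex I, 69.98% for complex II, 73.8% for complex III, 62.7% for complex IV and 67.1% for complex V. In every complex both shM2-3 libraries lay below both shCtl libraries. The exact permutation test cannot go below p = 0.33 with 2 libraries against 2, so these sums were not tested.

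**Figure D2:**
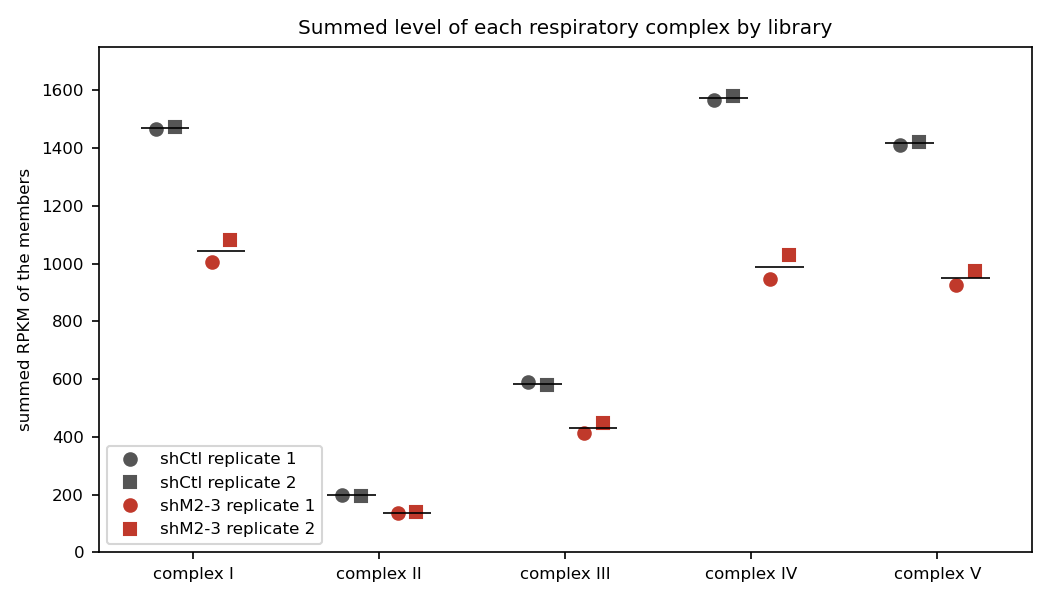
Summed RPKM of the members of each respiratory complex (y axis, linear from 0) in the 4 libraries, with shCtl in grey, shM2-3 in red and horizontal lines for the group means. The shM2-3 points lie below the shCtl points in each complex, for example 946 and 1029 against 1568 and 1581 in complex IV.

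Complex I, the NADH:ubiquinone oxidoreductase, had 36 tested members, of which 28 fell and 1 rose, with a median log2 fold change of -0.36. Its peripheral arm consists of the N module, which oxidises NADH, and the Q module, which reduces ubiquinone. In the N module 7 of 10 members fell, in the Q module 4 of 5, and in the membrane arm with its attached subunits 17 of 21. The lowest values belonged to NDUFC1, NDUFB8 and NDUFV1 and the highest to NDUFB11.

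NDUFC1, a small accessory subunit of the membrane arm (chromosome 4 of hg38, 139266880 to 139302551, minus strand), was counted 293 and 273 times in shCtl but 133 and 145 times in shM2-3. Its log2 fold change was -1.16 (standard error 0.156, edgeR adjusted p = 1.47e-05), and its RPKM was 42.8% of the control. NDUFB8, an accessory subunit of the distal membrane arm (chromosome 10, 100523740 to 100530000, minus strand), had RPKM values of 91.3 and 89.5 in shCtl and 40.3 and 41.3 in shM2-3. NDUFB8 fell by 1.08 on the log2 scale (standard error 0.0563, edgeR adjusted p = 9.60e-10). The groups did not overlap for either gene, and the shM2-3 libraries lay close together for NDUFB8 but further apart for NDUFC1, at RPKM values of 3.21 and 3.85.

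The catalytic subunits of the peripheral arm did not share one size of change. NDUFV1 carries the flavin that accepts electrons from NADH, and its RPKM was 74.5 and 72.9 in shCtl and 36.8 and 38.3 in shM2-3 (log2 fold change -0.91, standard error 0.0501, edgeR adjusted p = 1.80e-09). NDUFV2, its iron-sulfur partner, went from 132 and 126 to 95.2 and 94.4 (log2 fold change -0.38). NDUFS1, the largest iron-sulfur subunit of the N module, had 10.93 and 10.66 in shCtl and 10.97 and 10.73 in shM2-3, with overlapping groups and a log2 fold change of 0.07 (standard error 0.0437, edgeR adjusted p = 0.143). In the Q module NDUFS7, which holds the last iron-sulfur cluster before ubiquinone, went from 23.6 and 23.6 to 11.6 and 13.6 (log2 fold change -0.84, standard error 0.0857). The core Q subunits NDUFS8 and NDUFS3 had log2 fold changes of -0.38 and -0.35, and both passed the test. The groups did not overlap for any of these 6 genes but NDUFS1.

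NDUFB11, a membrane arm subunit encoded on the X chromosome (47142071 to 47145466, minus strand), went against the others. Its RPKM was 32.8 and 34.0 in shCtl and 35.7 and 41.6 in shM2-3. It was counted 864 and 911 times in shCtl but 1149 and 1212 times in shM2-3. The log2 fold change was 0.27 (standard error 0.0806, edgeR adjusted p = 0.00771). The value was 0.16 and no longer passed the test without shM2-3 replicate 2. The 7 members of complex I that were not called were NDUFA8 (log2 fold change -0.19), NDUFA2 (-0.13), NDUFA10 (-0.10), NDUFV3 (-0.03), NDUFB1 (0.02), NDUFS1 (0.07) and NDUFA5 (0.08). NDUFV2 had the highest mean RPKM of the complex over the 4 libraries. NDUFS5, a small subunit of the intermembrane space side, was highest in shCtl, at 133 ± 2.59 (SD, n = 2) in the shCtl libraries against 83.2 ± 8.49 (SD, n = 2) in the shM2-3 libraries. Of the other members of complex I that fell, 25 ranged from -0.91 to -0.24 in log2 fold change.

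Complex II, the succinate dehydrogenase of the tricarboxylic acid cycle, has 4 subunits and no mitochondrially encoded one. Its members went in both directions: SDHA, SDHB and SDHD fell and SDHC rose. SDHA, the flavoprotein that oxidises succinate, had RPKM values of 60.6 and 60.7 in shCtl and 49.9 and 52.8 in shM2-3 (log2 fold change -0.17, standard error 0.0457, edgeR adjusted p = 0.00381). SDHB, the iron-sulfur subunit, went from 66.2 and 61.8 to 44.7 and 42.2 (log2 fold change -0.49, standard error 0.0628). SDHC and SDHD together anchor the enzyme in the membrane and form the ubiquinone site. SDHD (chromosome 11, 112086824 to 112120016, plus strand) went from 64.7 and 62.7 to 30.8 and 36.0, a log2 fold change of -0.87 (standard error 0.0690, edgeR adjusted p = 7.85e-08). Its partner SDHC (chromosome 1, 161314381 to 161363206, plus strand) had RPKM values of 8.63 and 8.99 in shCtl and 9.59 and 9.89 in shM2-3. SDHC was counted 2723 and 2886 times in shCtl but 3701 and 3456 times in shM2-3. Its log2 fold change was 0.21 (standard error 0.0456, edgeR adjusted p = 0.000946). None of the 4 genes had overlapping groups. On log2(RPKM + 0.1) with limma the SDHC value was 0.14 and did not pass the test (adjusted p = 0.0710), so that the call was lost in that setting. The length the authors used for SDHC was 13.5 kb, so its low RPKM cannot be set beside those of the other subunits as a transcript level.

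Complex III, the cytochrome bc1 complex, had 9 tested members, of which 7 fell and none rose, with a median log2 fold change of -0.39. UQCRFS1, the Rieske iron-sulfur protein that takes electrons from ubiquinol (chromosome 19, 29205320 to 29213151, minus strand), had RPKM values of 19.99 and 21.42 in shCtl and 12.1 and 11.8 in shM2-3. It fell by 0.73 on the log2 scale (standard error 0.0629, edgeR adjusted p = 1.84e-07). The core proteins UQCRC1 and UQCRC2, which face the matrix, both fell, with RPKM values of 130 and 125 against 103 and 104 for UQCRC1 and 89.8 and 89.6 against 52.6 and 50.4 for UQCRC2. Their log2 fold changes were -0.23 (standard error 0.0429) and -0.73 (standard error 0.0437). UQCRC1 and UQCRC2 thus differed in size of change by more than the standard error of either.

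UQCRQ, UQCR10 and UQCR11, small accessory subunits, had log2 fold changes of -0.68, -0.50 and -0.39, and each passed the test. UQCRH, the hinge protein that helps cytochrome c to bind, had the highest level of the complex, with RPKM values of 218 and 213 in shCtl and 162 and 181 in shM2-3 (log2 fold change -0.27, edgeR adjusted p = 0.000669). UQCRB had RPKM values of 17.0 and 16.0 in shCtl and 14.1 and 15.7 in shM2-3, a log2 fold change of -0.08 that was not called. UQCRHL, a copy of UQCRH, was counted 108 times in both shCtl libraries but 65 and 125 times in shM2-3, and its counts are uncertain because reads of the 2 sequences can be exchanged. Without shM2-3 replicate 2 the median of complex III was -0.61.

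Complex IV, cytochrome c oxidase, showed the most uniform decrease by count: all 12 tested members fell, with a median log2 fold change of -0.67. Values ran from -0.96 (COX7A2L) to -0.25 (COX4I1). COX4I1, the largest nuclear-encoded subunit which joins early in assembly, had RPKM values of 210 and 213 in shCtl and 167 and 172 in shM2-3 (standard error of its log2 fold change 0.0417, edgeR adjusted p = 0.000107). COX5A and COX5B, which sit on the matrix side, had log2 fold changes of -0.85 and -0.72. The RPKM of COX5A was 54.5 and 55.4 in shCtl and 27.1 and 31.3 in shM2-3.

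The small transmembrane subunits of complex IV included the members with the largest decreases. COX7B (chromosome X, 77899440 to 77907376, plus strand) had RPKM values of 47.3 and 47.2 in shCtl and 22.0 and 24.6 in shM2-3, which gave -0.96 on the log2 scale (standard error 0.0586, edgeR adjusted p = 5.43e-09). COX6C, which has 17 annotated pseudogenes, stood at -0.96 on the log2 scale (standard error 0.0713). COX8A (chromosome 11, 63974620 to 63976543, plus strand) had the highest RPKM of the complex in shCtl, at 348 and 360. In shM2-3 it stood at 177 and 198 (log2 fold change -0.85, standard error 0.0548), and COX7C was higher there, at 202 and 216. COX7A2L, which links complexes III and IV in supercomplexes, went from 19.9 and 19.8 to 9.45 and 10.0 (standard error 0.0576, edgeR adjusted p = 4.26e-09).

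Several complex IV subunits exist as alternative isoforms. COX7A2, COX6A1 and COX6B1, the forms found widely across tissues, had log2 fold changes of -0.62, -0.58 and -0.45, and COX7C, which has no such alternative, had -0.47. COX6B2, known from testis, was counted 2 and 7 times in shCtl but 0 and 1 times in shM2-3 and was not tested. NDUFA4, first assigned to complex I and now placed in complex IV, had RPKM values of 32.5 and 31.6 in shCtl and 23.2 and 24.1 in shM2-3 (log2 fold change -0.37, edgeR adjusted p = 7.12e-05). Its hypoxia-linked relative NDUFA4L2 stayed at 10 to 15 counts in all 4 libraries and was not tested. COX4I2, COX6A2, COX7A1, COX7B2 and COX8C were not analysed here.

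**Figure D3:**
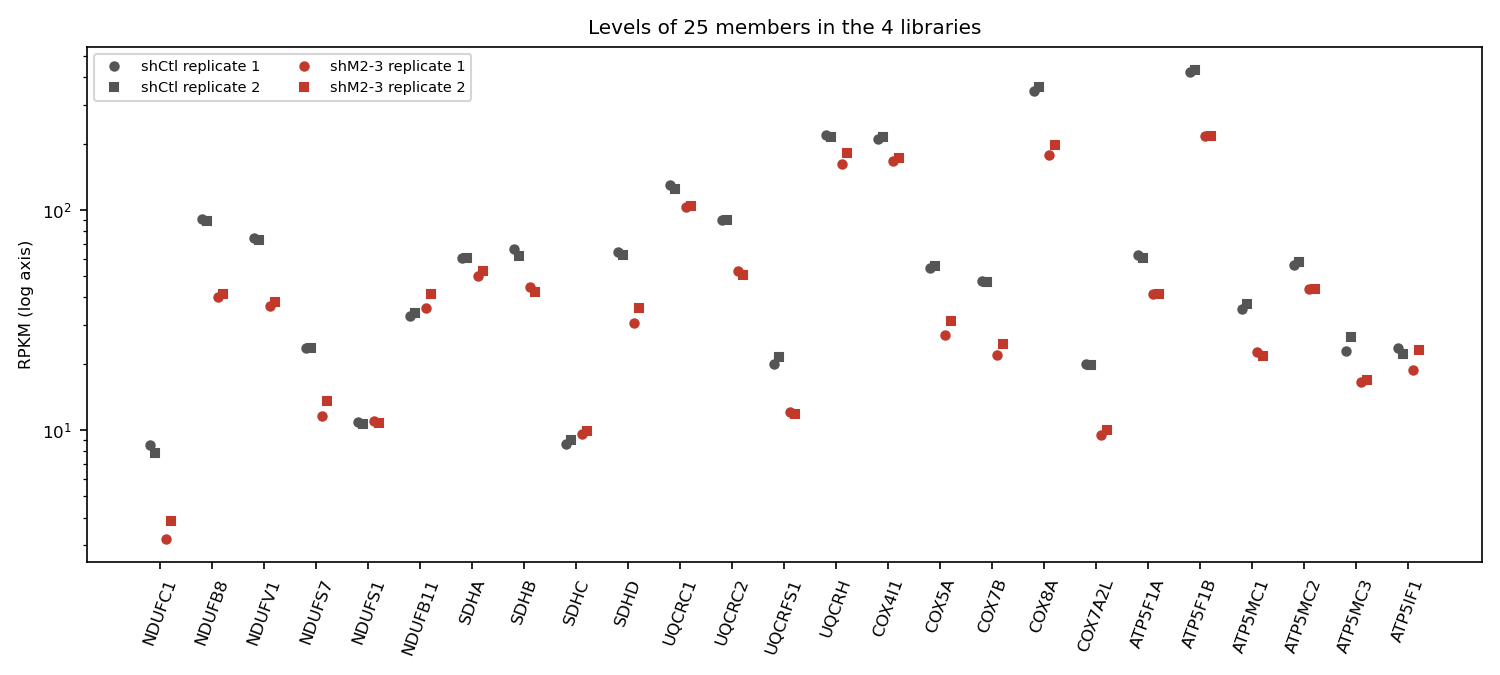
RPKM (y axis, log scale) of 25 members in the 4 libraries, with shCtl in grey, shM2-3 in red, replicate 1 as circles and replicate 2 as squares. The groups are separated downward for most genes, overlap for NDUFS1 and ATP5IF1, and are separated upward for NDUFB11 and SDHC.

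Complex V, the ATP synthase, had 18 tested members, of which 14 fell and none rose, with a median log2 fold change of -0.36. The catalytic head of the F1 part is made of the alpha subunit ATP5F1A and the beta subunit ATP5F1B. ATP5F1B (chromosome 12, 56638175 to 56645984, minus strand) had the highest RPKM of all members, at 423 and 430 in shCtl and 216 and 216 in shM2-3. It fell by 0.92 on the log2 scale (standard error 0.0368, edgeR adjusted p = 6.29e-11), the smallest adjusted p among the members. ATP5F1A had RPKM values of 62.2 and 60.2 in shCtl and 41.4 and 41.7 in shM2-3 (log2 fold change -0.49, standard error 0.0401). Of the central stalk, ATP5F1D (delta) and ATP5F1C (gamma) had log2 fold changes of -0.58 and -0.21 and passed the test, whereas ATP5F1E (epsilon) stood at 0.04, with overlapping groups.

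The membrane part of the ATP synthase turns on a ring of c subunits, which ATP5MC1, ATP5MC2 and ATP5MC3 encode as the same mature protein. ATP5MC1 had RPKM values of 35.6 and 37.2 in shCtl and 22.7 and 21.7 in shM2-3 (log2 fold change -0.65, standard error 0.0930). ATP5MC2 went from 55.9 and 57.7 to 43.8 and 43.7 (log2 fold change -0.31, standard error 0.0430), and ATP5MC3 from 22.8 and 26.5 to 16.5 and 16.8 (log2 fold change -0.50, standard error 0.0663). All 3 c-subunit genes thus fell, and none had overlapping groups. The length the authors used for ATP5MC2 was 2.71 kb, whereas its canonical transcript in GENCODE has 0.632 kb. The RPKM of ATP5MC2 thus cannot be set beside those of the other c-subunit genes as a transcript level. The peripheral stalk genes ATP5PO, ATP5PB and ATP5PF also fell (log2 fold changes -0.50, -0.40 and -0.28), and ATP5PD, at -0.12, was not called.

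Of the small membrane subunits of the ATP synthase, ATP5ME, ATP5MD, ATP5MF and ATP5MG fell, from -0.84 for ATP5ME to -0.14 for ATP5MG, and ATP5MPL, at -0.11, was not called. ATP5ME rested on few counts, with 272 and 284 in shCtl and 153 and 187 in shM2-3 (standard error 0.162). ATP5IF1, the inhibitor that blocks ATP hydrolysis by the synthase, had RPKM values of 23.5 and 22.2 in shCtl and 18.8 and 23.2 in shM2-3. Its groups overlapped, and its log2 fold change was -0.06 (edgeR adjusted p = 0.557). ATP5MGL (0 and 0 counts against 1 and 1) and, in complex III, UQCRBP1 (10 and 9 against 13 and 7) were too low to be tested.

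Subunits and carriers outside the symbol rule were read as well. CYC1, the cytochrome c1 of complex III, had RPKM values of 142 and 146 in shCtl and 63.7 and 58.0 in shM2-3, and its log2 fold change of -1.17 (standard error 0.0498, edgeR adjusted p = 1.13e-10) passed a fold change of 2. NDUFAB1, the acyl carrier protein bound to complex I, fell by 0.61 on the log2 scale, and cytochrome c itself (CYCS) fell by 0.13 (edgeR adjusted p = 0.0260). The CYCS call was lost with DESeq2 (adjusted p = 0.105). SLC25A5, an ADP/ATP carrier of the inner membrane, went from 228 and 228 to 101 and 104 (log2 fold change -1.08, standard error 0.0422).

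The factors that assemble the complexes are read beside the 36.4% of all tested genes that were lower and the 36.3% that were higher. Of the complex I assembly factors 10 of 17 tested fell and 1 rose, from NDUFAF2 (log2 fold change -1.21) to COA1 (0.51). For complexes II and III, 7 of 10 fell and 3 rose (SDHAF2, UQCC1 and TTC19). SDHAF4 and SDHAF3, which help to mature the flavoprotein and the iron-sulfur subunit of succinate dehydrogenase, had log2 fold changes of -1.33 and -1.08, and SDHAF2, which promotes flavin attachment to SDHA, had 0.54. For complex IV, 11 of 24 fell (45.8%) and 4 rose (16.7%), from COX18 (-1.23), which inserts a part of the COX2 protein into the membrane, to COA7 (0.51). For complex V with the phosphate and adenine nucleotide carriers, 4 of 8 fell (50%) and 1, ATPAF2 (0.71), rose (12.5%).

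**Figure D4:**
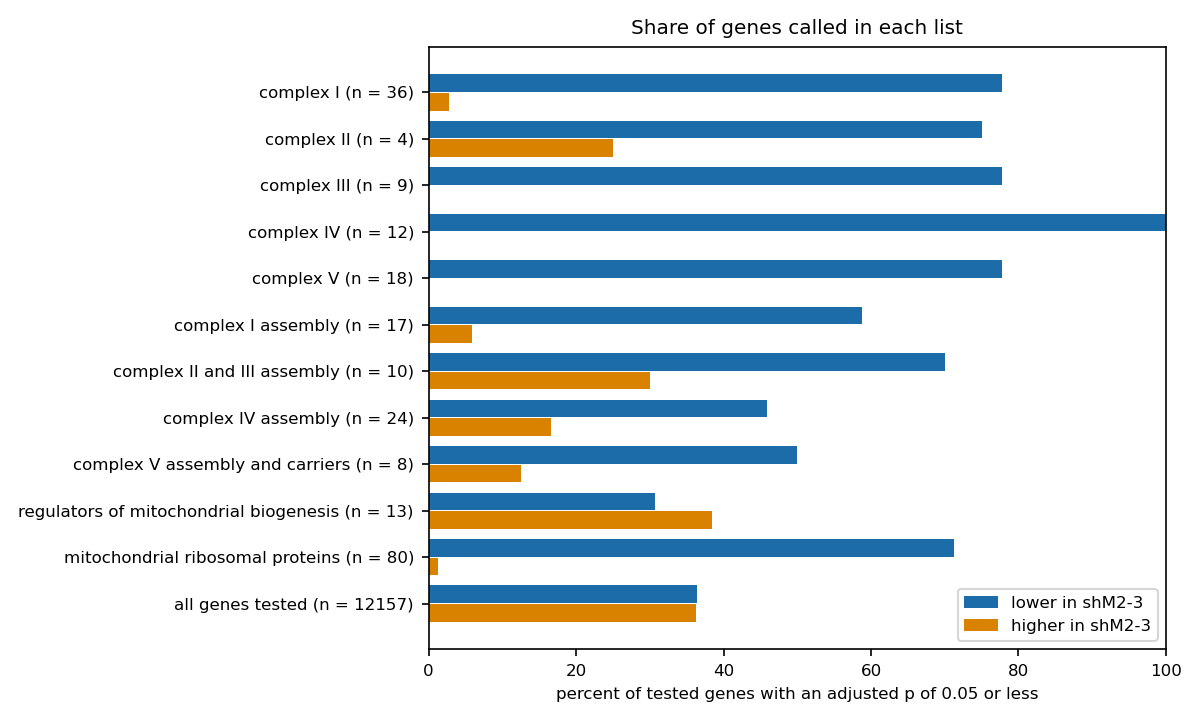
Percent of tested genes (x axis) that were lower (blue) or higher (orange) in shM2-3 at an adjusted p of 0.05 or less. Bars are drawn for each respiratory complex, the assembly lists, the regulators, the mitochondrial ribosomal proteins and all 12157 tested genes. The blue bars of the 5 complexes lie between 75.0% and 100%, beside 36.4% for all genes.

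The mitochondrial ribosome translates the mitochondrially encoded subunits. Of the 80 tested genes whose symbols start with MRPL or MRPS and a number, 57 fell and 1 rose, with a median log2 fold change of -0.45. The pseudogenes MRPL45P2 and MRPS31P5 were among the 80 and were not called. MRPL39 was lowest, with RPKM values of 21.7 and 22.1 in shCtl and 8.03 and 8.42 in shM2-3 (log2 fold change -1.35), and MRPL2, MRPL33 and MRPL24 also passed a fold change of 2 downward. MRPL36, the 1 gene that rose (0.32), was not called with DESeq2 (adjusted p = 0.0782).

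Of 13 tested regulators of mitochondrial gene expression, 4 fell (30.8%) and 5 rose (38.5%), shares close to those of all genes tested (36.4% and 36.3%). NRF1 had RPKM values of 3.76 and 4.09 in shCtl and 3.58 and 3.63 in shM2-3, a log2 fold change of -0.06 (edgeR adjusted p = 0.651). GABPA (0.33) and GABPB1 (0.57), which form the GABP factor, rose, as did YY1 (0.38), the coactivator PPRC1 (0.35) and TFAM (0.46), which packages mitochondrial DNA. ESRRA, an orphan nuclear receptor that acts on mitochondrial genes, fell by 0.46 on the log2 scale. LRPPRC and SLIRP, which together stabilise mitochondrial messenger RNAs, fell by 0.36 and 1.14, and TFB1M, a methyltransferase of mitochondrial ribosomal RNA, fell by 0.95. PPARGC1A and PPARGC1B were under an RPKM of 1 in all libraries and were not tested.

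**Figure D5:**
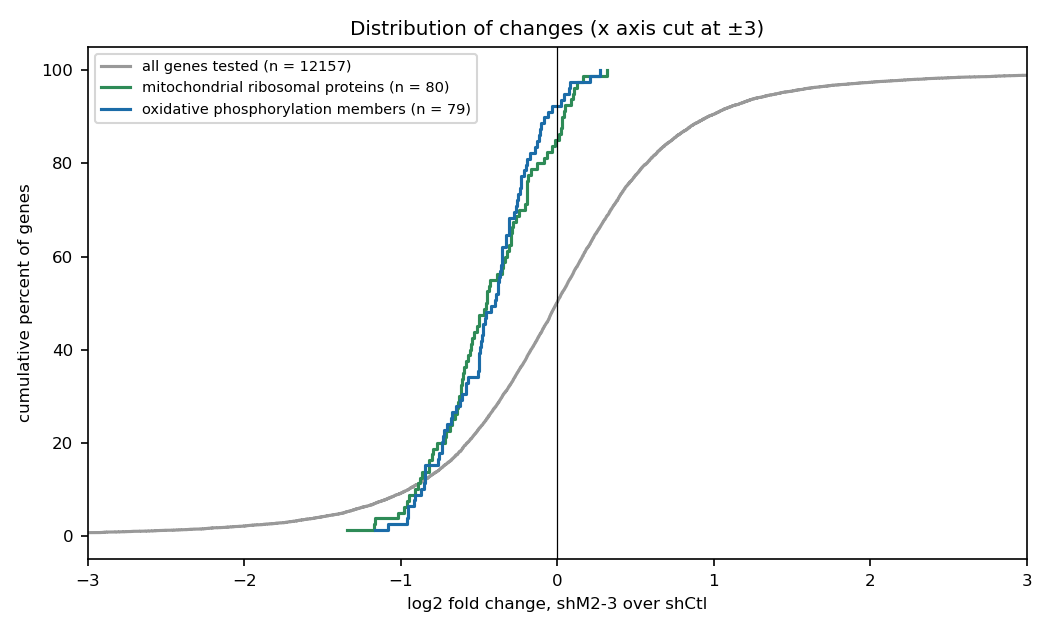
Cumulative percent of genes (y axis) by log2 fold change of shM2-3 over shCtl (x axis, cut at both ends). Curves are drawn for all 12157 tested genes, the 80 tested genes with MRPL or MRPS symbols (pseudogenes included) and the 79 oxidative phosphorylation members. The curves of both mitochondrial lists lie left of 0 for most of their length and within a narrow range, with medians of -0.45 and -0.40 beside -0.0037.

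Members were short and abundant genes. The length the authors used had a median of 1.12 kb among members and 3.54 kb among all tested genes. Length moved with the fold change across the transcriptome: with tested genes ranked by length and split into 5 equal bins, from the shortest to the longest, the median log2 fold change was -0.25, -0.07, 0.06, 0.09 and 0.15. The shortest bin held 56 members, with a median of -0.47 and 49 lower, and 46.0% of all its genes were lower. The longest bin held 7 members, with a median of -0.08 and 2 lower, and 30.2% of all its genes were lower. By level, 55 members lay in the highest of 5 bins of mean RPKM, where the median was -0.40 for members and -0.12 for all genes. In that bin 49 members were lower, and 49.4% of all its genes were lower. Among the 44 members of 1 kb or more, 34 were lower, and among the 35 shorter ones 30 were. The part of length in the members' values was not tested further.

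The shM2-3 libraries also differed from each other at these genes. Replicate 2 of shM2-3 had a higher RPKM than replicate 1 in 62 of the 79 tested members, in 30 of the 35 under 1 kb, whereas replicate 2 of shCtl was the higher in 35 of 79. The share of all genes is not given here. Summed over all tested genes, RPKM was also higher in shM2-3 replicate 2, at 294594 against 286646 in replicate 1. In the shortest length bin, the median log2 ratio of shM2-3 replicate 2 over 1 was 0.14 for members and 0.03 for all genes. Without shM2-3 replicate 1, 55 members were lower and 3 higher, and without shM2-3 replicate 2, 67 were lower and 1 higher. The libraries carried no strand information, and 49 tested members overlap another gene in the GENCODE annotation, among them NDUFC1, NDUFB8, NDUFV1, NDUFS7, NDUFB11, SDHD and ATP5F1B, whose counts can hold reads of the other gene. Of these 41 were lower, and of the 30 without an overlap 23 were lower. Annotated pseudogenes were found for 49 tested members (41 lower), and 23 of the 30 members without one were lower.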

How the data were processed

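ES-2 RNA was sequenced as non-strand-specific paired ends of 150 bases. Per the labels and the methods of the study, the authors aligned reads to hg38 (HISAT2 2.0.4 and Partek 7.18 in the submitters' processing notes) and deposited estimated counts, not normalized, and RPKM values, which scale those counts by gene length and mapped reads. After rounding, the counts went through edgeR 4.0.16 under R 4.3.3 (TMM, glmQLFTest, no block) for the 12157 genes whose RPKM exceeded 1 in 1 library or more. Genes were called where the p adjusted by Benjamini-Hochberg was 0.05 or less. The standard error is the log2 fold change divided by the square root of F. Replicates differed by 3.46 (shCtl) and 3.98 (shM2-3) times sampling noise (chi-square over degrees of freedom), so they were not duplicates. An SD over 2 libraries is only a rough measure of spread. Levels between genes are given in RPKM only. Gene lengths were recovered from counts and RPKM. For 5 members this length was over 3 times that of the canonical transcript in GENCODE, which lowers their RPKM beside other genes. Gene positions, overlaps and pseudogenes come from GENCODE release 44, in which all 83 members were found, and promoters from RefSeq (GRCh38.p14).

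The members and lists were chosen with earlier results of these data known. The lists of the closing part were added later still. Named genes were those past a fold change of 2, the lowest, highest and most abundant member of each complex, catalytic subunits, isoform pairs, and the lowest and highest gene of each related list. Other genes were named after their values had been seen, and a few genes that fit these criteria are left unreported. The alternatives were total counts, DESeq2 size factors, DESeq2 1.42.0, limma 3.58.1 on log2(RPKM + 0.1) and log2(RPKM + 1), other filters, a replicate block, other fold limits, NDUFA4 counted in complex I, and leaving out each library. The restriction to genes of 1 kb or more was added after the data had been seen. The tests were checked on simulated data.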

Additional observations from a re-analysis of the deposited data

How the results depend on the processing

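The count of lower members ranged from 60 (DESeq2) to 67 under the normalization, test, filter and block alternatives, and from 55 to 67 when each library was left out. It was 24 at a fold change of 1.5, 2 at a fold change of 2, and 34 with genes under 1 kb removed, which leaves fewer genes by construction. In the same order, lower members numbered 9, 2 and 12 in complex I, 7, 0 and 6 in complex IV, and 4, 0 and 8 in complex V. At a fold change of 1.5 and of 2 they numbered 1 and 0 in complex II and 3 and 0 in complex III, and no member was higher (0). The share of all genes at a fold change of 1.5 is not given here, so the counts at that limit have no background beside them. At a fold change of 2, 8.93% of all genes tested were lower. Higher members numbered 1 with limma at either pseudocount, where complex II had 0. Leaving out each library gave 1 to 3 higher members, 0 to 1 in complex I and 0 to 1 in complex V. The median of complex II was -0.40 with limma on log2(RPKM + 0.1), and leaving out libraries gave medians from -0.61 to -0.32 in complex III. Leaving out any library gave fewer lower genes among complex II and III assembly factors and among mitochondrial ribosomal genes than the main fit. The counts of higher complex I assembly factors and higher mitochondrial ribosomal genes moved in some of these runs. With limma, 2 complex IV assembly factors were higher, and with DESeq2 no mitochondrial ribosomal gene was (0).

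Among the named genes, signs turned only for members that were not called. ATP5F1E was -0.03 with limma on log2(RPKM + 0.1) and -0.029 on log2(RPKM + 1), and from -0.10 to 0.17 when each library was left out. ATP5IF1 ranged from -0.22 to 0.091 and UQCRHL from -0.95 to 0.15 in the same way. The cause was not tested. The median of all genes shifted by less than 0.1 under each scaling. Same-numbered replicates were not shown to be paired: their deviations correlated at -0.031 over genes. With a replicate block, 64 members were lower and 2 higher, no count moved by over 1.5 times and no call of a named gene changed. Precision is limited by 2 libraries per group, and the least covered tested member had 65 counts in 1 library.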

Other observations

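Other mitochondrial pathways were read by the same test, from lists added after the tables had been opened. The tricarboxylic acid cycle with pyruvate entry delivers the NADH and succinate that the chain oxidises, and 17 of its 20 genes fell and 1 rose, with a median log2 fold change of -0.66. MPC1, a subunit of the mitochondrial pyruvate carrier, was counted 407 and 509 times in shCtl but 210 and 169 times in shM2-3 (log2 fold change -1.42, standard error 0.133). FH, the fumarase, went from RPKM values of 45.3 and 42.6 to 17.0 and 17.2 (log2 fold change -1.29). SUCLA2, a succinyl-CoA ligase subunit, rose by 0.39, whereas the alternative subunit SUCLG2 fell by 0.84.

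Of 34 genes of mitochondrial protein import and folding, 22 fell and 1 rose, with a median of -0.32. HSPD1, the matrix chaperonin, went from RPKM values of 326 and 320 to 136 and 137 (log2 fold change -1.18), and the receptor TOMM20 from 86.2 and 81.3 to 35.8 and 39.9 (-1.08). Fatty acid beta-oxidation was divided, with 8 of 17 genes lower and 5 higher and a median of -0.06. ECI2, an enoyl-CoA isomerase, was counted 5797 and 6005 times in shCtl but 1577 and 1389 times in shM2-3 (log2 fold change -2.14, standard error 0.0449). CPT1A, which controls fatty acid entry into mitochondria, was counted 18 and 26 times in shCtl but 325 and 281 times in shM2-3 (log2 fold change 3.63, standard error 0.221). Lower and higher calls made up 36.4% and 36.3% of all genes tested.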
